A study of Drosophila melanogaster with 8 samples.

Results

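The *U12*Δ/Δ strain, which lacks the gene of the U12 snRNA, was compared with *WT* for the expression of every gene in the larva. The comparison rests on 4 of the 8 mRNA libraries of the series, 2 from *U12*Δ/Δ and 2 from *WT*. Expression is given as TPM, the share of transcripts after division by gene length, which sums to 1000000 in each library. Of 17473 genes in the tables, 10855 had a mean TPM of at least 1 over these 4 libraries and were tested. Genes were set apart by 1 rule, that both *U12*Δ/Δ libraries lay on the same side of both *WT* libraries, and 4594 genes (42.3%) met it. The gene nearest to the minimum had a mean TPM of 1.0005 inside it and 0.99983 outside it, and the smallest distances between groups were 7.5e-05 above and 0.00025 below *WT* in log2(TPM + 1).

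*U12*Δ/Δ larvae were homozygous for a CRISPR/Cas9 deletion of the U12 snRNA gene, made with a pair of guide RNAs in a line that expresses Cas9 from *nanos*. The strain was outcrossed to *WT* for several generations and kept over a balancer chromosome. For its deletion strains as a group, the paper names *CyO* or *TM3* balancers with GFP, which allowed homozygotes to be recognised as larvae. Its list of fly stocks gives *TM6C* with *Sb1* as the balancer of the *U12* deletion. These homozygotes die as pupae, so their parents carried an intact copy of the gene. *WT* larvae were of the isogenic *w1118* strain. Both groups were whole L3 wandering larvae with 12 animals pooled for each library, and their sex was not stated. In whole larvae, fewer cells of a type and less RNA per cell cannot be told apart. The labels number the libraries of each group 1 and 2, and nothing states a pairing between them.

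Most introns of the fly are removed by the major spliceosome, and a small class, the U12-type introns, is removed by the minor spliceosome. U12 snRNA is an RNA subunit of the minor spliceosome and base-pairs with the branch point of the intron, while U11 snRNA recognises the 5′ splice site (5′SS), and U4atac and U6atac join for catalysis. U12-type introns keep long, nearly invariant sequences at the 5′SS and the branch point, and their host genes act in many pathways, among them ion transport and RNA processing.

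The U12-type introns share their sequence at the splice sites. All 15 U12-type introns examined carried ATCCTTT at intron positions 3 to 9, counted from the first intron base on the transcribed strand, and 8 of them carried CCTTAAC, a branch point sequence, within their last 50 nt. None of 48 other introns that had been classed as sensitive to loss of the minor spliceosome, but are not U12-type, carried either motif at these places. U12-type introns are recognised by such sequences, so this contrast follows from how the classes were made. Of the 15, 8 began with AT, 6 with GT and 1 with GC. Shown here are the splice sites of 4 host genes whose *U12*Δ/Δ libraries lay beyond *WT*, at chr2L:6681773-6681942 (minus strand, *Nhe3*), chrX:12019326-12019627 (plus strand, *Lsm12a*), chr3R:17002029-17002150 (minus strand, *Sf3a1*) and chr3R:25070051-25070202 (plus strand, *CG11839*), all annotated introns. The 5′SS runs hold the last 5 exon bases and the first 20 intron bases, with the first 9 intron bases in capitals. The 3′ runs are the last 30 intron bases, with CCTTAAC in capitals where present.
Nhe3 5′SS: cattgATATCCTTTtcaaagattaa
Nhe3 3′ end: tgctaatgacttCCTTAACtcccaccgcac
Lsm12a 5′SS: cctgaGTATCCTTTtgcaacgaaat
Lsm12a 3′ end: tgctcttctcttccctttccaaccgcatag
Sf3a1 5′SS: tagaaGCATCCTTTgccaaaaagaa
Sf3a1 3′ end: atactcagttatcaaagctttaactattag
CG11839 5′SS: gcaaaATATCCTTTacaaaagcaaa
CG11839 3′ end: gttggtttCCTTAACtgaacttaactatac
The 4 sites thus share the 7 bases from position 3 and differ in their terminal bases, AT to AC in *Nhe3* and *CG11839*, GT to AG in *Lsm12a* and GC to AG in *Sf3a1*.

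Libraries of the same group differed widely from each other. Across the genes tested, the Spearman correlation between the 2 libraries was 0.662 for *U12*Δ/Δ and 0.640 for *WT*, as a description of these libraries, since genes are not independent. The log2 difference between the 2 libraries had an SD of 1.95 in *U12*Δ/Δ and 1.86 in *WT*, and 50.5% of the genes in *U12*Δ/Δ and 52.4% in *WT* differed by more than 2-fold. Salivary glue genes, which mark the late larval salivary gland, were the most uneven. Their summed TPM was 214750 and 676 in *U12*Δ/Δ libraries 1 and 2, against 18692 and 9196 in *WT* libraries 1 and 2. *Sgs7* alone had 116541 TPM in *U12*Δ/Δ library 1 and 2.03 TPM in library 2, and lies in a stretch of the kind described next. The 10 most abundant genes took 35.0% and 26.3% of the TPM in *U12*Δ/Δ, against 17.2% and 21.7% in *WT*. TPM is a share, and how far these genes lowered the others was not tested.

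The libraries also differed along the order of the gene tables. The offset of a library was taken as its median deviation from the median of the 8 libraries, over the 40 tested genes listed around each gene. In 1858 genes (17.1% of those tested) the offset of at least 1 of the 4 libraries exceeded 1.5 on the log2 scale in either direction. Such stretches covered 483 and 596 genes in *U12*Δ/Δ libraries 1 and 2, against 594 and 397 genes in *WT* libraries 1 and 2, and the largest had median offsets of 3.47, 3.85, 4.33 and 4.42 in these 4 libraries. The strongest stretch of each library lay at different genes from those of the other 3, as the plot of the offsets along the tables shows. These stretches held rows 1289 to 1424 of the gene tables in *WT* library 1 and 1591 to 1714 in *WT* library 2. They held rows 3083 to 3198 in *U12*Δ/Δ library 1 and 3376 to 3498 in *U12*Δ/Δ library 2. Their rows thus rose in the order in which the series lists the libraries. Some further stretches rose in that order, beginning at rows 14551 and 14860 in *WT* libraries 1 and 2 and 16401 and 16684 in *U12*Δ/Δ libraries 1 and 2. Values are therefore also given below with each gene centred on the 40 genes around it (local centring), and named genes that lie in a stretch are marked as such. The origin of the stretches was not tested.

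**Figure D1:**
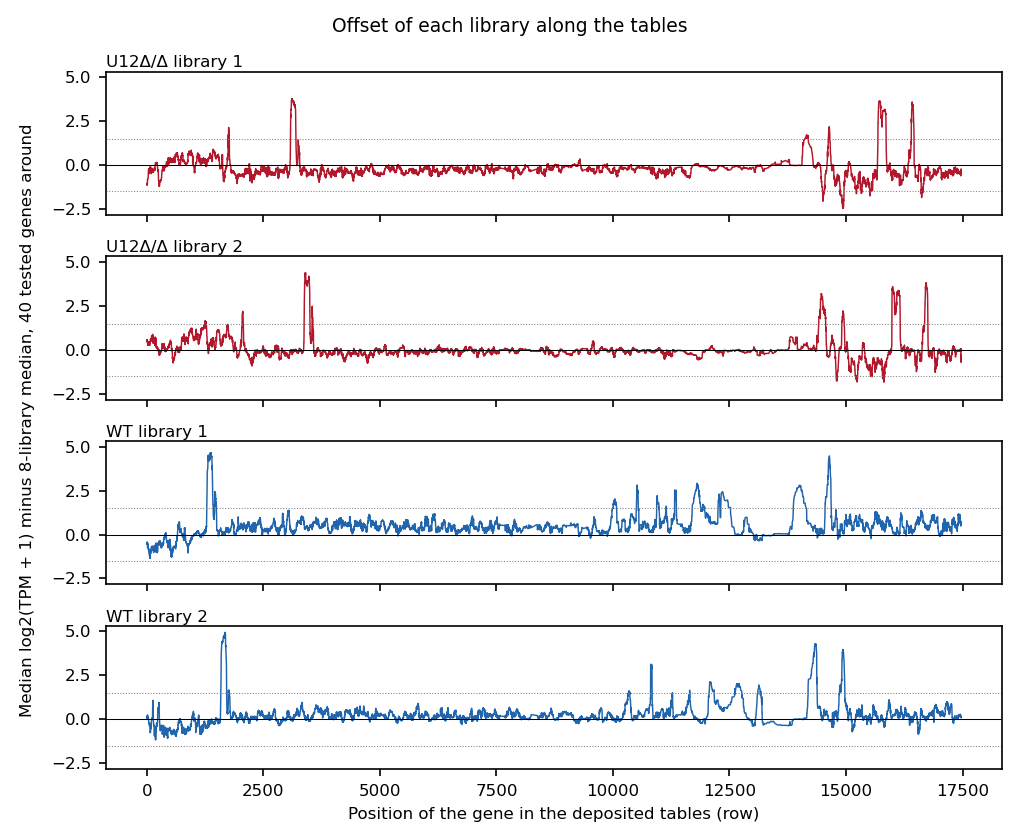
Local offset (log2, y axis) of each of the 4 libraries against the row of the gene tables (x axis), as the median deviation from the 8-library median over the 40 tested genes around each gene. The upper panels are *U12*Δ/Δ libraries 1 and 2 and the lower panels *WT* libraries 1 and 2, dotted lines mark an offset of 1.5 in either direction, and the strongest stretches, with median offsets of 3.47, 3.85, 4.33 and 4.42 from top to bottom, lie at different rows.

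More genes lay below *WT* than above it. Of the 10855 genes tested, 1100 (10.1%) had both *U12*Δ/Δ libraries above both *WT* libraries, 3494 (32.2%) had both below, and 6261 (57.7%) overlapped. The distance between the nearest *U12*Δ/Δ and *WT* libraries, called the gap, was at least 1 in log2(TPM + 1) for 343 genes above and 1160 genes below *WT*, and at least 2 for 86 and 246 genes. The median log2 fold change over all genes was −0.60, though it was above 0, at 0.66 and 0.85, for the first 2 blocks of 500 tested genes in the tables. This split depended on the scale. After scaling by the median ratio of the libraries, which moves that median to −0.0035, 2177 genes (20.1%) lay above and 2089 (19.2%) below *WT*, and after local centring 1792 (16.5%) lay above and 2250 (20.7%) below. With the stretches left out, 967 of 8997 genes (10.7%) lay above and 3082 (34.3%) below.

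**Figure D2:**
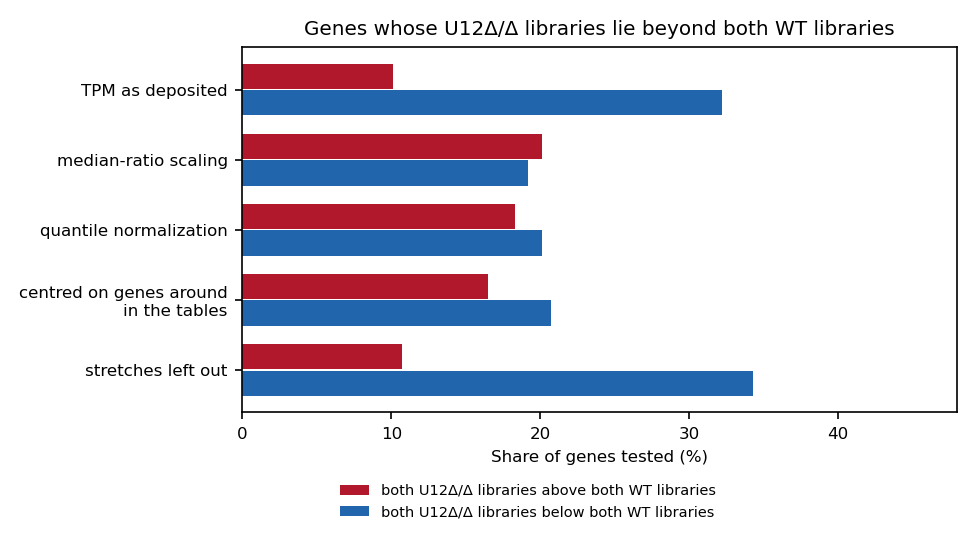
Share of genes tested (%, x axis) whose *U12*Δ/Δ libraries both lie above (red) or both below (blue) the 2 *WT* libraries, for TPM as deposited and 4 other treatments of the same values (rows). The excess of genes below *WT*, 32.2% against 10.1% above, is present as deposited and without the stretches and is absent after median-ratio scaling.

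No gene passed the test. With limma on log2(TPM + 1) in 1 fit of the 4 groups, 0 genes (0%) had an adjusted p under 0.05, the lowest adjusted p was 0.270, and 1147 genes (10.6%) had an unadjusted p under 0.05, 206 of them higher and 941 lower in *U12*Δ/Δ. Without *WT* replicate 1 the same test called 67 genes, and without *WT* replicate 2 it called 269 genes, 268 of them lower. For 2 against 2 libraries the smallest two-sided p of an exact permutation test is 0.333. A gene whose 4 libraries were interchangeable would meet the rule with that same probability, and 42.3% of the genes tested met it. Counts of any list given below are to be read beside the shares of all genes, 10.1% above and 32.2% below *WT*. After median-ratio scaling those shares were 20.1% and 19.2%, and after local centring 16.5% and 20.7%. The values below are therefore descriptions, and "above" and "below" mean only that the 2 groups did not overlap.

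The deleted gene was checked first. *snRNA:U12* lies at 3L:16653769-16654006 on the plus strand, inside an intron of *Baldspot*, which is transcribed from the minus strand and encodes a fatty acid elongase. It was listed at 0 TPM in both *U12*Δ/Δ libraries, against 0.0724 and 0.454 TPM in the *WT* libraries, and was thus absent where the labels say so. The level in *WT* was near 0 too, and mRNA libraries hold little of such short RNAs, which carry no poly(A) tail. *snRNA:U11* had 0.0849 and 0.0183 TPM in *U12*Δ/Δ, against 0.104 and 0.0435 TPM in *WT*, and *snRNA:U4atac* and *snRNA:U6atac* were listed at 0 in all libraries. The libraries therefore hold no measure of the other minor snRNAs.

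Most genes around the deletion overlapped *WT*. *Baldspot* had 8.58 and 35.2 TPM in *U12*Δ/Δ, against 405 and 7.18 TPM in *WT*, and these overlap (in a stretch). Of the 5 genes on each side by start coordinate, 8 were tested in all, each with a log2 fold change below 0, as had the median of all genes. The 1 that lay beyond *WT* was *zetaCOP*, a subunit of the COPI coat of Golgi vesicles, whose start lies 17895 bases from that of *snRNA:U12*. It had 3.01 and 7.55 TPM in *U12*Δ/Δ, against 72.3 and 75.3 TPM in *WT* (log2 fold change −3.67 ± 1.05 SE, adjusted p = 0.373). Among the others, *Abl*, a tyrosine kinase, overlapped with 50.8 and 28.6 TPM in *U12*Δ/Δ and 32.5 and 55.9 TPM in *WT*.

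Host genes of U12-type introns lay above *WT* more often than below it. Of 19 hosts, 18 were tested, 5 lay above, 3 below and 10 overlapped (all genes 10.1% above and 32.2% below), with a median log2 fold change of 0.74 where all genes had −0.60. Median-ratio scaling placed 9 above and 1 below, where all genes then had 20.1% above and 19.2% below. Local centring placed 7 above and 1 below, where all genes then had 16.5% above and 20.7% below. TPM counts every read on the gene and cannot say whether the intron was removed. The hosts were taken from U12-type introns known by their sequence, and no test of the list was made.

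*Epac*, an exchange factor for Rap GTPases that binds cAMP, had 26.3 and 35.6 TPM in *U12*Δ/Δ, against 1.08 and 10.03 TPM in *WT* (log2 fold change 2.72 ± 1.10, adjusted p = 0.454). *Nhe3*, a sodium/hydrogen exchanger, had 44.9 and 180.4 TPM in *U12*Δ/Δ, against 16.9 and 13.1 TPM in *WT* (2.52 ± 1.27). *Sf3a1*, a subunit of the U2 snRNP of the major spliceosome, had 18.2 and 60.7 TPM in *U12*Δ/Δ, against 7.72 and 4.35 TPM in *WT* (2.33 ± 1.02). In these 3 genes the nearest libraries were more than 1 apart on the log2 scale, but a single library carried much of the fold change, which became 1.52 for *Epac* without *WT* replicate 1, and 1.53 for *Nhe3* and 1.49 for *Sf3a1* without *U12*Δ/Δ replicate 2. *Syx6*, a syntaxin of endosome and Golgi traffic, had 19.3 and 30.0 TPM in *U12*Δ/Δ and 15.03 and 16.04 TPM in *WT*, and *Lsm12a* only just met the rule, with 45.7 TPM in its lower *U12*Δ/Δ library and 45.2 TPM in its higher *WT* library.

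Below *WT* were *CG3294*, *Phb2* and *CG11839*. *CG3294* had 0.693 and 5.82 TPM in *U12*Δ/Δ, against 14.4 and 16.4 TPM in *WT* (log2 fold change −2.27 ± 1.03, adjusted p = 0.467), and its log2 fold change became −1.26 without *U12*Δ/Δ replicate 1. *Phb2*, a prohibitin of the inner mitochondrial membrane, had 18.4 and 84.5 TPM in *U12*Δ/Δ, against 87.3 and 125 TPM in *WT*, with a gap of 0.05. *CG11839* had 1.70 and 0.832 TPM in *U12*Δ/Δ, against 2.03 and 4.32 TPM in *WT*, with a gap of 0.17. Of the 3, *Phb2* and *CG11839* sat at the edge of the rule. *pros*, a homeobox gene of neural differentiation and also a host, overlapped with 13.4 and 20.3 TPM in *U12*Δ/Δ and 4.89 and 13.7 TPM in *WT*. The widest spread between *U12*Δ/Δ libraries among the hosts was in *Kcmf1*, with 41.9 and 1140.0 TPM, against 34.1 and 104 TPM in *WT*.

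Neural genes that had been put forward as candidates from their splice sites were mixed. Of 19, 18 were tested, 4 (22.2%) lay above, 5 (27.8%) below and 9 overlapped (all genes 10.1% above and 32.2% below), with a median log2 fold change of −0.35; median-ratio scaling gave 8 above and 3 below, and local centring 2 above and 3 below. This list was drawn from splicing in these libraries. *sgg*, the fly GSK3 kinase, had 76.0 and 301 TPM in *U12*Δ/Δ, against 22.3 and 35.4 TPM in *WT* (log2 fold change 2.39 ± 1.13, adjusted p = 0.478, and 1.40 without *U12*Δ/Δ replicate 2). *Cnb*, a centrosome protein, had 6.08 and 0.811 TPM in *U12*Δ/Δ, against 65.1 and 20.5 TPM in *WT* (−3.39 ± 1.02, in a stretch). *MCPH1*, a regulator of chromosome condensation, had 9.35 and 10.6 TPM in *U12*Δ/Δ, against 65.9 and 45.3 TPM in *WT* (−2.34 ± 1.03, in a stretch).

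*Fas3*, a cell adhesion molecule of axons and muscles, lay below *WT* with 2.30 and 7.60 TPM in *U12*Δ/Δ, against 87.4 and 10.6 TPM in *WT* (−2.58 ± 1.74), and its gap of 0.43 was far smaller than the spread between the *WT* libraries; without *WT* replicate 1 its log2 fold change was −1.12 and without *WT* replicate 2 it was −4.05. *Zmynd10*, a factor of dynein assembly in cilia, overlapped with 0.236 and 6.16 TPM in *U12*Δ/Δ and 11.4 and 3.34 TPM in *WT*. *Pcyt2*, an enzyme of phosphatidylcholine synthesis, overlapped with 0.216 and 41.3 TPM in *U12*Δ/Δ and 1.65 and 64.4 TPM in *WT* (in a stretch). In *Pcyt2* the libraries of 1 group thus differed more than the groups. *rut*, the adenylyl cyclase known for its role in learning, had 4.29 and 21.2 TPM in *U12*Δ/Δ, against 32.3 and 39.0 TPM in *WT*, and its log2 fold change of −1.75 turned to 0.30 under local centring (in a stretch) and became −0.72 without *U12*Δ/Δ replicate 1 and −2.79 without replicate 2.

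**Figure D3:**
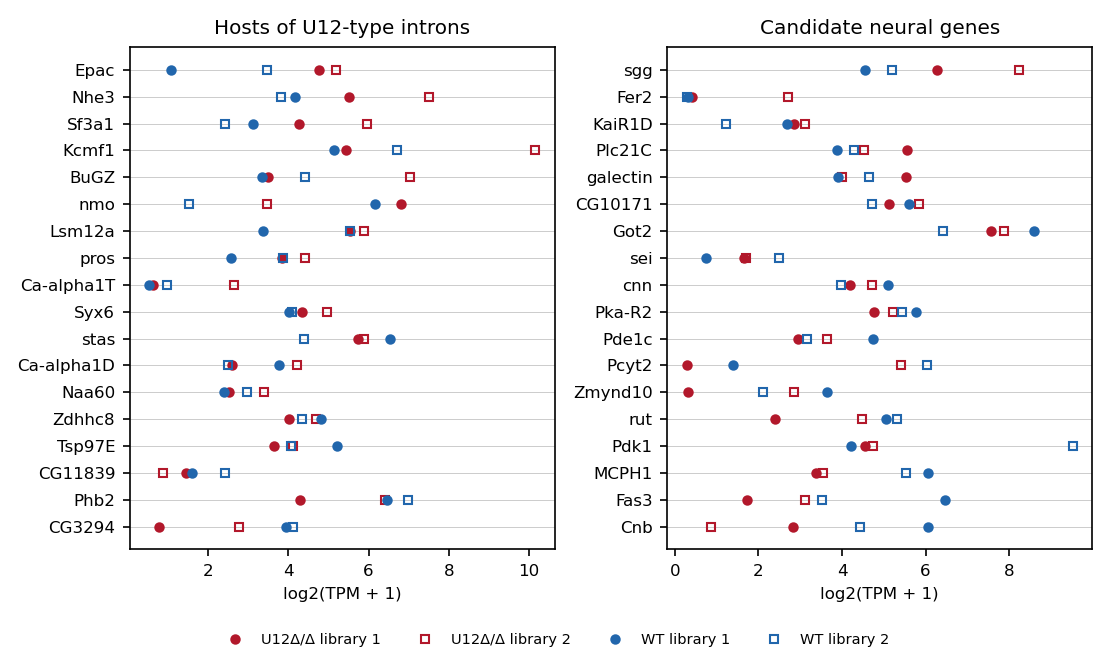
Expression as log2(TPM + 1) (x axis) of the 18 tested hosts of U12-type introns (left) and the 18 tested candidate neural genes (right), 1 point per library, with genes ordered by log2 fold change. The *U12*Δ/Δ points (red) lie right of both *WT* points (blue) in 5 hosts and 4 candidates and left of both in 3 hosts and 5 candidates.

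Hosts of the sensitive introns that are not U12-type lay mostly with the bulk of the genes. Of 42 tested among 46, 3 lay above, 16 below and 23 overlapped, a share below of 38.1% beside 32.2% of all genes, and 11 lay below after median-ratio scaling and 13 after local centring. These introns were also chosen from the same libraries, and 15 of the 42 genes lie in stretches. *hydra*, a testis gene, had 3.33 and 1.73 TPM in *U12*Δ/Δ, against 25.7 and 31.5 TPM in *WT* (log2 fold change −3.10 ± 0.79, adjusted p = 0.372). *ymp* had 0.403 and 0.561 TPM in *U12*Δ/Δ, against 19.6 and 6.83 TPM in *WT* (−3.10 ± 0.87). *CG4836* had 11.8 and 111 TPM in *U12*Δ/Δ, against 581 and 3216 TPM in *WT* (−5.17 ± 1.48, in a stretch). *Muc68Ca*, a mucin, lay above with 15254 and 1255 TPM in *U12*Δ/Δ, against 120.3 and 159 TPM in *WT* (4.97 ± 1.40, in a stretch).

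The 15 genes with the largest gaps above *WT* had gaps of 3.14 to 5.12 and log2 fold changes of 3.41 to 6.45, with adjusted p between 0.270 and 0.457 (limma). Log2 fold changes are of TPM + 1 and understate the change of low genes. All 15 stayed above *WT* after median-ratio scaling and 14 after local centring, *Hel89B* being the exception. *CG13461*, *IBIN* and *Hel89B* lie in stretches, and 6 of the 15 overlap another gene.

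The largest gap belonged to *TotC* at 3R:20872988-20873580, a Turandot gene whose secreted product accumulates in the blood after stress. It had 367 and 203 TPM in *U12*Δ/Δ, against 4.88 and 1.17 TPM in *WT* (log2 fold change 6.26 ± 1.11, adjusted p = 0.321). Its neighbour *TotB*, at 3R:20873938-20874522, had 37.8 and 25.1 TPM in *U12*Δ/Δ, against 0.0304 and 0.0218 TPM in *WT* (4.95 ± 0.72, adjusted p = 0.270). *TotB* was also the gene above *WT* that limma called once *WT* replicate 2 was left out, with a log2 fold change of 4.95. *TotA* had 1870.4 and 2146 TPM in *U12*Δ/Δ, against 646 and 215 TPM in *WT*, and *TotZ* had 1.80 and 2.57 TPM in *U12*Δ/Δ and was listed at 0 in *WT*. The family was looked at because of *TotC* and *TotB*, which favours members above *WT*. All 5 of its 8 members with enough expression to be tested, *TotE* included, lay above *WT*, where all genes had 10.1% above. *TotB* and *TotZ* reached the minimum mean TPM only through their *U12*Δ/Δ libraries, so the filter itself fixed their side. The count is therefore no test of the family. Their median log2 fold change was 2.70.

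Targets of the Toll immune pathway were among the same genes. *Dso1*, a Daisho peptide that acts against fungi, had 25.2 and 58.9 TPM in *U12*Δ/Δ, against 0.834 and 0.159 TPM in *WT* (log2 fold change 4.76 ± 1.30, adjusted p = 0.372), and *Dso2* had 5.06 and 6.34 TPM in *U12*Δ/Δ, against 0.210 and 1.26 TPM in *WT*. *BomS1*, a Bomanin peptide, had 27.7 and 35.0 TPM in *U12*Δ/Δ, against 2.22 and 0.763 TPM in *WT* (3.75 ± 1.55). *IBIN*, a short peptide gene switched on by infection, had 67.7 and 77.1 TPM in *U12*Δ/Δ, against 5.79 and 1.24 TPM in *WT* (4.23 ± 1.14, in a stretch). Of the 12 Bomanin genes, a family also chosen after these values were seen, 8 were tested. Of these, 5 (62.5%) lay above *WT*, 3 overlapped and 0 lay below, where all genes had 10.1% above and 32.2% below. Such a choice favours genes above *WT*, so the counts are no test of the family.

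The antimicrobial peptides themselves were not set apart in the same way. Of 9 tested among 22, 1 (11.1%) lay above, 1 (11.1%) below and 7 overlapped, where all genes had 10.1% above and 32.2% below. After median-ratio scaling 3 of the 9 lay above, where all genes then had 20.1% above. *Drs*, the classic Toll target drosomycin, had 138 and 395 TPM in *U12*Δ/Δ and 83.1 and 1183 TPM in *WT*, which overlap (in a stretch). *AttA*, an attacin, had 2.51 and 1.59 TPM in *U12*Δ/Δ, against 0.0310 and 0.560 TPM in *WT*. *PGRP-SB1*, a secreted peptidoglycan recognition protein, had 3.33 and 0.954 TPM in *U12*Δ/Δ, against 14.3 and 9.63 TPM in *WT*.

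The remaining large gaps above *WT* were in genes of varied roles. *Bace*, an aspartic protease, had 1785 and 1316 TPM in *U12*Δ/Δ, against 49.0 and 5.12 TPM in *WT* (log2 fold change 6.45 ± 1.26, adjusted p = 0.321). *ItgaPS4*, an integrin alpha subunit, had 23.9 and 20.9 TPM in *U12*Δ/Δ, against 0.281 and 0.396 TPM in *WT* (4.13 ± 0.80). *Pgd*, an enzyme of the pentose phosphate pathway, had 228 and 266 TPM in *U12*Δ/Δ, against 7.17 and 18.0 TPM in *WT* (4.31 ± 1.07). In each of these the lower *U12*Δ/Δ library exceeded the higher *WT* library by more than 3 on the log2 scale. *Muc26B*, a mucin, had 441 and 632 TPM in *U12*Δ/Δ, against 32.1 and 26.9 TPM in *WT*. *Ide*, a metalloprotease that degrades insulin, had 74.1 and 96.3 TPM in *U12*Δ/Δ, against 6.46 and 7.53 TPM in *WT*. Of 7 mucin genes tested, chosen after seeing *Muc26B*, 3 (42.9%) lay above *WT* and 4 overlapped, where all genes had 10.1% above.

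The 15 genes with the largest gaps below *WT* had gaps of 3.66 to 5.04 and log2 fold changes of −5.92 to −4.22, with adjusted p between 0.270 and 0.40. All 15 stayed below *WT* after median-ratio scaling and after local centring. *Rtf1*, *eIF4E3* and *Glut1* lie in stretches, and 10 of the 15 overlap another gene, from which their reads cannot be told apart where counting ignored the strand.

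*Pof* encodes the protein that coats the fourth chromosome and raises the expression of its genes. It had 3.18 and 36.3 TPM in *U12*Δ/Δ, against 962 and 592 TPM in *WT* (log2 fold change −5.92 ± 1.29, adjusted p = 0.365). *Rtf1*, a subunit of the Paf1 complex of transcription elongation, had 14.5 and 9.88 TPM in *U12*Δ/Δ, against 549.6 and 461 TPM in *WT* (−5.28 ± 0.96, in a stretch). *ND-19*, a subunit of mitochondrial complex I, had 6.96 and 34.6 TPM in *U12*Δ/Δ, against 751 and 766 TPM in *WT* (−5.50 ± 1.33). These 3 were among the most abundant genes of the set in *WT*. *rno*, a chromatin protein with a PHD finger that acts in EGF receptor signalling, had 8.15 and 8.97 TPM in *U12*Δ/Δ, against 252 and 324 TPM in *WT* (−4.91 ± 1.23).

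Membrane and trafficking genes were also present among them. *Inx3*, an innexin of gap junctions, had 72.99 and 11.99 TPM in *U12*Δ/Δ, against 1362 and 973 TPM in *WT* (log2 fold change −5.22 ± 1.48, adjusted p = 0.372). *Glut1*, a glucose transporter, had 21.3 and 6.03 TPM in *U12*Δ/Δ, against 337 and 319 TPM in *WT* (−4.72 ± 1.10, in a stretch). *Syx8*, a syntaxin of late endosomes, had 2.20 and 2.14 TPM in *U12*Δ/Δ, against 41.2 and 81.6 TPM in *WT* (−4.22 ± 1.07). All 3 had *U12*Δ/Δ libraries far below either *WT* library. *eIF4E3*, a cap-binding initiation factor of the testis, had 1.38 and 3.50 TPM in *U12*Δ/Δ, against 67.9 and 77.4 TPM in *WT* (in a stretch).

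Among the genes without a known role, *CG30428* had the largest gap below *WT*, with 1.03 and 2.96 TPM in *U12*Δ/Δ, against 143 and 129 TPM in *WT* (log2 fold change −5.59 ± 1.07, adjusted p = 0.321). *CG12782* had 0.121 and 0.817 TPM in *U12*Δ/Δ, against 72.7 and 48.7 TPM in *WT* (−5.41 ± 0.77, adjusted p = 0.270). *CG30060* had 0.293 and 0.152 TPM in *U12*Δ/Δ, against 34.2 and 15.3 TPM in *WT* (−4.30 ± 0.66, adjusted p = 0.270). *CG12782* and *CG30060* passed limma's threshold when either *WT* library was left out, and *CG30275*, with 0.170 and 0.978 TPM in *U12*Δ/Δ and 56.2 and 42.2 TPM in *WT*, passed it without *WT* replicate 2.

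**Figure D4:**
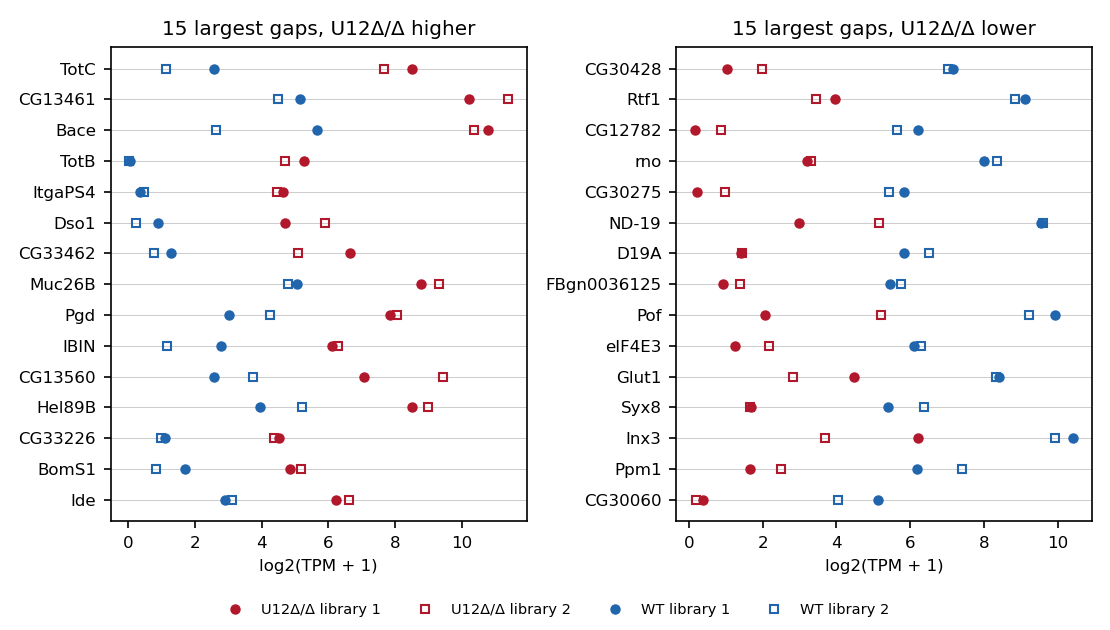
Expression as log2(TPM + 1) (x axis) of the 15 genes with the largest gap above *WT* (left) and the 15 with the largest gap below it (right), 1 point per library. The nearest *U12*Δ/Δ (red) and *WT* (blue) points are 3.14 to 5.12 apart on the left and 3.66 to 5.04 apart on the right.

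Genes of the splicing machinery lay on both sides of *WT*. Of 23 genes of the major spliceosome, 4 (17.4%) lay above, 5 (21.7%) below and 14 overlapped. All genes had 10.1% above and 32.2% below. After median-ratio scaling 6 of the 23 lay above and 1 below, and 5 of the 23 lie in stretches. *Sf3a2*, the partner of *Sf3a1* in the U2 snRNP, had 20.8 and 18.1 TPM in *U12*Δ/Δ, against 2.73 and 0.951 TPM in *WT* (log2 fold change 2.92 ± 1.11, adjusted p = 0.437). *snRNP-U1-70K*, a U1 snRNP protein, had 46.3 and 57.3 TPM in *U12*Δ/Δ, against 7.73 and 9.64 TPM in *WT* (2.45 ± 1.01, in a stretch). *U2af50*, which recognises the polypyrimidine tract, lay below with 11.5 and 17.4 TPM in *U12*Δ/Δ, against 78.2 and 165 TPM in *WT* (−2.92 ± 1.07).

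The Sm proteins, which form the ring shared by the snRNPs of both spliceosomes, lay below *WT* or overlapped it. Of 6 tested, 4 (66.7%) lay below and 0 above (all genes 32.2% below and 10.1% above), and 3 lay below after median-ratio scaling and after local centring. *SmD2* had 12.2 and 8.68 TPM in *U12*Δ/Δ, against 35.8 and 38.5 TPM in *WT* (log2 fold change −1.75 ± 0.93, adjusted p = 0.515), and *SmD1* had 5.44 and 4.47 TPM in *U12*Δ/Δ, against 15.5 and 33.7 TPM in *WT*. *SmF* had 7.76 and 5.80 TPM in *U12*Δ/Δ, against 30.5 and 14.7 TPM in *WT*. The SMN complex, which loads that ring, had 1 gene above, 0 below and 7 overlapping. *Smn* itself had 9.76 and 200.3 TPM in *U12*Δ/Δ and 24.7 and 28.3 TPM in *WT*, a spread within *U12*Δ/Δ that encloses *WT* (in a stretch).

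Nonsense-mediated decay removes transcripts with premature stop codons, such as those that keep an intron. Of its 9 genes, 4 (44.4%) lay below and 0 above *WT* (all genes 32.2% and 10.1%), with 2 below and 1 above after median-ratio scaling and after local centring. *Upf3* had 1.62 and 4.60 TPM in *U12*Δ/Δ, against 10.9 and 18.8 TPM in *WT* (log2 fold change −2.0 ± 0.98, adjusted p = 0.490). *Upf2* had 7.33 and 7.82 TPM in *U12*Δ/Δ, against 15.5 and 16.2 TPM in *WT* (−0.97 ± 0.90), where all genes had a median of −0.60.

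Genes of DNA replication and mitosis lay below *WT* or overlapped it. Of 26, 12 (46.2%) lay below and 0 above, with a median log2 fold change of −1.40 (all genes 32.2% below, 10.1% above and a median of −0.60), and 10 lay below and 2 above after median-ratio scaling and 13 below and 2 above after local centring. *stg*, the Cdc25 phosphatase that starts mitosis, had 2.23 and 1.01 TPM in *U12*Δ/Δ, against 30.9 and 30.5 TPM in *WT* (log2 fold change −3.64 ± 0.80, adjusted p = 0.365). *PCNA*, the sliding clamp of DNA polymerase, had 3.71 and 5.30 TPM in *U12*Δ/Δ, against 58.8 and 65.7 TPM in *WT* (−3.54 ± 1.06). *aurA*, a mitotic kinase, had 2.001 and 1.602 TPM in *U12*Δ/Δ, against 10.2 and 15.8 TPM in *WT* (−2.29 ± 0.78). The *U12*Δ/Δ values of these 3 genes were close together and far from *WT*. *dpa*, a subunit of the MCM helicase, had 4.23 and 5.30 TPM in *U12*Δ/Δ, against 20.7 and 42.3 TPM in *WT*.

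Male germline transcripts showed the same side. Of 17 tested among 19, 9 (52.9%) lay below and 0 above *WT*, with a median log2 fold change of −1.89 (all genes 32.2% below, 10.1% above and a median of −0.60), and 8 lay below after median-ratio scaling and after local centring. *Mst98Ca*, a sperm tail protein, had 1.00 and 4.94 TPM in *U12*Δ/Δ, against 71.0 and 77.4 TPM in *WT* (log2 fold change −4.45 ± 0.96, adjusted p = 0.365). *Mst77F*, a sperm chromatin protein, had 1.27 and 2.03 TPM in *U12*Δ/Δ, against 28.8 and 25.7 TPM in *WT* (−3.43 ± 0.90). *can*, a testis-specific transcription factor subunit, had 0.105 and 0.143 TPM in *U12*Δ/Δ, against 4.98 and 2.96 TPM in *WT* (−2.12 ± 0.57). The list summed to 66.7 and 118 TPM in *U12*Δ/Δ, against 425 and 195 TPM in *WT*. *betaTub85D*, the testis tubulin, overlapped with 11 and 24.1 TPM in *U12*Δ/Δ and 38 and 11.4 TPM in *WT*.

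A pool of 12 larvae can hold unequal numbers of males, and the RNAs that mark males did not point one way. *lncRNA:roX1*, made on the male X chromosome, had 244 and 379 TPM in *U12*Δ/Δ, against 88.3 and 37.7 TPM in *WT*, while *lncRNA:roX2* had 0.614 and 28.5 TPM in *U12*Δ/Δ and 14.5 and 127 TPM in *WT*, which overlap. Of the 5 protein genes of dosage compensation, 3 lay below *WT*, 2 after median-ratio scaling and 1 after local centring. *msl-3*, a subunit of the complex on the male X, had 5.12 and 3.78 TPM in *U12*Δ/Δ, against 25.1 and 21.2 TPM in *WT* (log2 fold change −2.15 ± 0.84, adjusted p = 0.437). Whether the share of males or the size of the testis moved with these values was not tested.

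Most markers of the wandering stage overlapped *WT*, and whether the stage differed was not tested. Of 11 salivary glue genes tested, 1 (9.09%) lay above, 1 (9.09%) below and 9 overlapped. All genes had 10.1% above, 32.2% below and 57.7% overlapping. The median log2 fold change of the glue genes was −2.65, and 4 of the 11 lie in stretches. Of 6 fat body genes 1 (16.7%) lay above, 1 (16.7%) below and 4 overlapped. *Sgs3* had 68492 and 1.96 TPM in *U12*Δ/Δ and 9759 and 4834 TPM in *WT* (in a stretch), so the 2 *U12*Δ/Δ libraries enclosed *WT*. *Sgs1* had 114.8 and 0.365 TPM in *U12*Δ/Δ, against 496 and 314 TPM in *WT*, and *Sgs4* overlapped with 1062 and 12 TPM in *U12*Δ/Δ and 713 and 189 TPM in *WT*. Each of these 3 glue genes was higher in *U12*Δ/Δ library 1 than in library 2. *Lsp1beta*, a storage protein of the fat body, had 18675 and 95340 TPM in *U12*Δ/Δ, against 2287 and 5147 TPM in *WT* (log2 fold change 3.62 ± 1.26, adjusted p = 0.419). *Fbp1*, the receptor for storage proteins, had 17438 and 20.5 TPM in *U12*Δ/Δ, against 26696 and 32428 TPM in *WT* (−5.59 ± 2.55).

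Genes of the ecdysone response mostly overlapped *WT*. Of 19 tested, 1 (5.26%) lay above, 2 (10.5%) below and 16 overlapped, with a median log2 fold change of −0.33, and 10 of them lie in stretches. All genes had 10.1% above, 32.2% below and 57.7% overlapping, with a median of −0.60. *ImpE2*, an ecdysone-inducible gene of imaginal discs, had 3.89 and 1.59 TPM in *U12*Δ/Δ, against 48.1 and 26.7 TPM in *WT* (log2 fold change −3.37 ± 1.07, adjusted p = 0.40). *ImpE1*, of the same class, had 0.847 and 2.53 TPM in *U12*Δ/Δ, against 36.3 and 6.29 TPM in *WT* (−2.69 ± 1.04, in a stretch). *Eip63F-1*, an early ecdysone target, had 30.1 and 109 TPM in *U12*Δ/Δ, against 21.0 and 13.1 TPM in *WT*. Of 8 genes of ecdysone synthesis and turnover, 0 lay above, 1 (12.5%) lay below and 7 overlapped. The gene below was *Cyp18a1*, which inactivates the hormone, with 0.407 and 2.83 TPM in *U12*Δ/Δ, against 10.6 and 14.8 TPM in *WT*. Of 10 juvenile hormone genes, 1 (10%) lay above and 2 (20%) below.

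Of 15 chitin and cuticle assembly genes tested, 4 lay above and 1 below *WT*, with a median log2 fold change of 0.88 (all genes 10.1% above, 32.2% below and −0.60). After median-ratio scaling 7 lay above and 1 below, where all genes then had 20.1% above and 19.2% below. *Chs2*, the chitin synthase of the gut, had 127 and 46.8 TPM in *U12*Δ/Δ, against 7.65 and 3.79 TPM in *WT* (log2 fold change 3.60 ± 1.05, adjusted p = 0.378), and *kkv*, the chitin synthase of the epidermis, had 146 and 190.4 TPM in *U12*Δ/Δ, against 23.5 and 113 TPM in *WT*. Of 13 larval cuticle genes of the Lcp group, 1 (7.69%) lay above and 5 (38.5%) below, close to the shares of all genes, and 4 lay below under either rescaling. *Lcp2* had 158 and 85.4 TPM in *U12*Δ/Δ, against 875 and 423 TPM in *WT* (−2.38 ± 1.12), and *Lcp3* had 535 and 1623 TPM in *U12*Δ/Δ, against 5466 and 3978 TPM in *WT* (−2.32 ± 1.15).

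Of 7 pupal cuticle genes tested, 2 lay above *WT* and 0 below. *Pcp* had 171 and 54.0 TPM in *U12*Δ/Δ, against 43.6 and 5.08 TPM in *WT*, and *Cpr47Eb* had 90.3 and 194 TPM in *U12*Δ/Δ, against 25.03 and 28.97 TPM in *WT* (log2 fold change 2.26 ± 1.12, adjusted p = 0.497). Of 5 Osiris genes tested among 23, 3 lay above *WT*, but local centring placed 1 above and 3 below, so their side depended on the scale. Of 6 Tweedle cuticle genes, 2 lay above and 2 below.

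Nerve and muscle genes followed the bulk of the genes. Of 17 presynaptic genes, 1 lay above and 6 (35.3%) below *WT*, with 3 above and 2 below after local centring. *comt*, the NSF ATPase that recycles SNAREs, had 8.82 and 2.11 TPM in *U12*Δ/Δ, against 74.7 and 101 TPM in *WT* (log2 fold change −3.99 ± 0.98, adjusted p = 0.372). *elav*, the general neuronal marker, had 6.14 and 4.196 TPM in *U12*Δ/Δ, against 18.6 and 20.8 TPM in *WT* (−1.76 ± 0.96), and *shi*, the dynamin of endocytosis, had 4.45 and 39.1 TPM in *U12*Δ/Δ, against 91.5 and 138 TPM in *WT*. *Snap25*, a SNARE, was the 1 gene above, with 1.65 and 3.52 TPM in *U12*Δ/Δ and 0.773 and 0.771 TPM in *WT*.

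Of 7 neuromuscular glutamate receptor genes, 1 lay above and 2 below. *GluRIID*, a receptor subunit, had 0.530 and 1.80 TPM in *U12*Δ/Δ, against 6.04 and 32.6 TPM in *WT* (log2 fold change −2.89 ± 1.00, adjusted p = 0.419). *dlg1*, the scaffold that marks the synaptic membrane, had 24.4 and 28.9 TPM in *U12*Δ/Δ, against 61.7 and 29.7 TPM in *WT*, with a gap of 0.04. Of 19 sarcomere genes, 7 (36.8%) lay below and 0 above, but 1 lay below and 2 above after median-ratio scaling. *Mhc*, the muscle myosin, overlapped with 1684 and 3586 TPM in *U12*Δ/Δ and 2579 and 1590 TPM in *WT* (in a stretch). *wupA*, a troponin I, had 1072 and 1864 TPM in *U12*Δ/Δ, against 6095 and 38927 TPM in *WT* (−3.44 ± 1.91, in a stretch).

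Blood cell genes were mixed. Of 11 haemocyte genes, 3 (27.3%) lay above and 1 (9.09%) below (all genes 10.1% and 32.2%). After median-ratio scaling and after local centring 5 lay above and 0 below, where all genes had 20.1% and 16.5% above. *ush*, a cofactor of GATA factors in blood cells, had 48.2 and 26.4 TPM in *U12*Δ/Δ, against 2.81 and 3.51 TPM in *WT* (log2 fold change 3.15 ± 0.99, adjusted p = 0.40). *PPO3*, a prophenoloxidase of lamellocytes, had 5.65 and 10.04 TPM in *U12*Δ/Δ, against 0.240 and 1.85 TPM in *WT* (2.19 ± 0.92), and *crq*, a scavenger receptor of plasmatocytes, had 96.5 and 34.5 TPM in *U12*Δ/Δ, against 9.19 and 26.5 TPM in *WT*. The summed level of the list overlapped, at 1265 and 4859 TPM in *U12*Δ/Δ and 3705 and 7823 TPM in *WT*.

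Several small heat shock genes were low in *U12*Δ/Δ. Of 18 heat shock and chaperone genes, 9 (50%) lay below and 2 (11.1%) above *WT*, where all genes had 32.2% below and 10.1% above. Of the 18, 7 lay below after median-ratio scaling and 5 after local centring, where all genes had 19.2% and 20.7% below. In all, 8 of the 18 lie in stretches. *Hsp26* had 18.4 and 46.5 TPM in *U12*Δ/Δ, against 813 and 279 TPM in *WT* (log2 fold change −3.98 ± 1.15, adjusted p = 0.377, in a stretch). *Hsp23* had 219.8 and 51.1 TPM in *U12*Δ/Δ, against 3024 and 618 TPM in *WT* (−3.67 ± 1.27). Their neighbour *Hsp27* overlapped, with 16.7 and 39.3 TPM in *U12*Δ/Δ and 1316 and 22.7 TPM in *WT*. *Hsp83*, the fly HSP90, lay above with 1274 and 3790.0 TPM in *U12*Δ/Δ, against 505 and 455 TPM in *WT* (in a stretch).

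Of 14 glycolysis genes, 1 lay above and 5 below, with 2 below after local centring. *Gapdh1* had 54.6 and 809 TPM in *U12*Δ/Δ, against 2384 and 2676 TPM in *WT* (log2 fold change −3.57 ± 1.41, adjusted p = 0.442), and *Ldh*, lactate dehydrogenase, had 122 and 278 TPM in *U12*Δ/Δ, against 624 and 424 TPM in *WT*. *Gpdh1*, which draws triose phosphate off towards glycerol, was the gene above, with 197 and 139 TPM in *U12*Δ/Δ and 63.4 and 29.1 TPM in *WT*. Of 14 insulin and growth genes, 2 lay above and 2 below. *Ilp8*, the relaxin-like signal by which damaged discs delay metamorphosis, had 8.75 and 26.0 TPM in *U12*Δ/Δ, against 2.93 and 0.164 TPM in *WT* (2.92 ± 1.02, adjusted p = 0.419), and *Ilp6*, an insulin-like peptide of the fat body, had 60.7 and 50.3 TPM in *U12*Δ/Δ, against 11.02 and 16.3 TPM in *WT* (1.97 ± 1.05).

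Cytosolic ribosomal protein genes lay on both sides. Of 84 tested, 11 (13.1%) lay above and 31 (36.9%) below *WT*, close to the shares of all genes. *RpS19a* had 311 and 226 TPM in *U12*Δ/Δ, against 2861 and 2468 TPM in *WT* (log2 fold change −3.32 ± 1.12, adjusted p = 0.419), while *RpLP0* had 1539.7 and 2584 TPM in *U12*Δ/Δ, against 354 and 233 TPM in *WT* (2.79 ± 1.08). Subunits of 1 particle thus lay on opposite sides in the same libraries. Of 32 proteasome genes, 2 lay above and 6 below, of 13 mitochondrially encoded genes 0 lay above and 3 below, and of 38 digestive enzyme genes 2 lay above and 7 below. In the Malpighian tubule and trachea list, 2 of 15 lay above and 5 below, with 8 of the 15 in stretches.

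**Figure D5:**
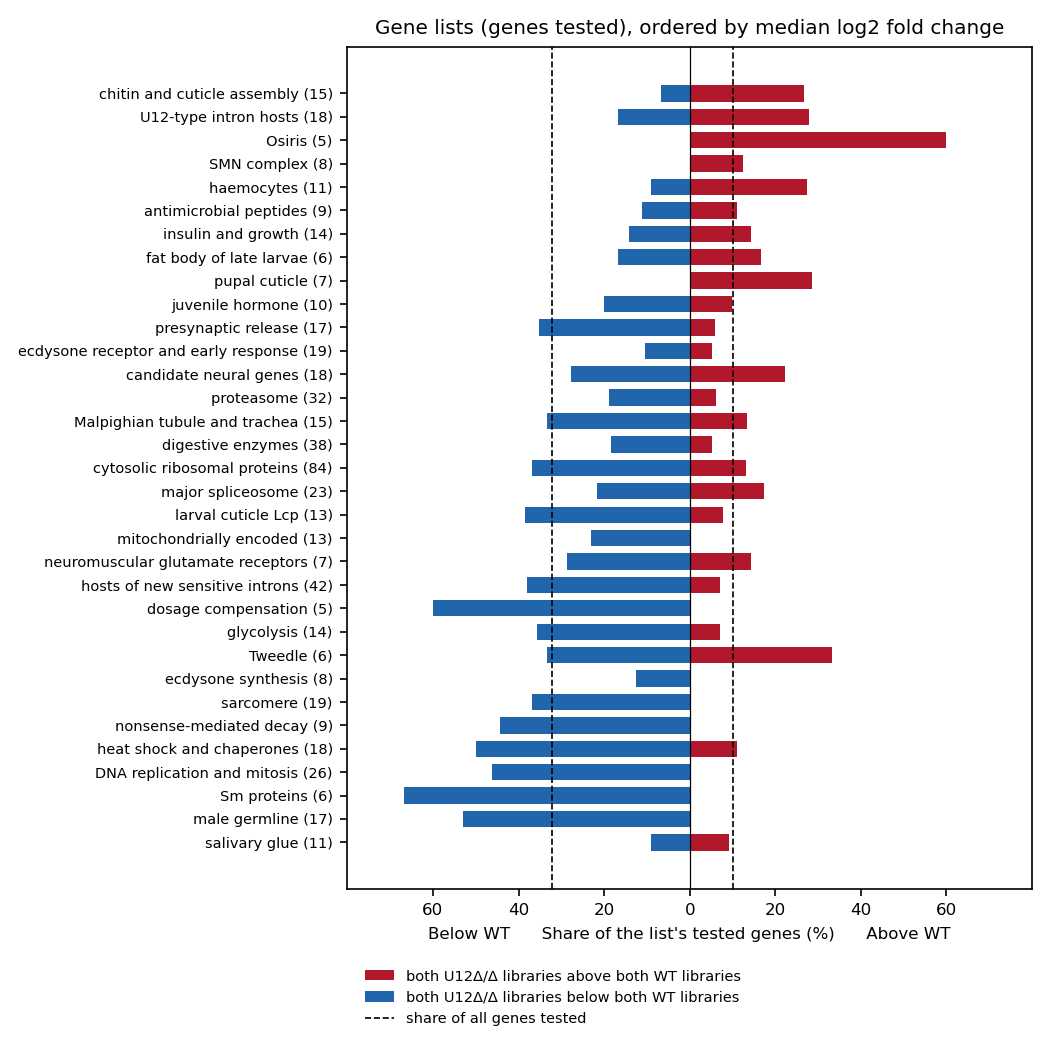
Share of the tested genes of each list (%, x axis) whose *U12*Δ/Δ libraries both lie above (red, right) or both below (blue, left) the *WT* libraries, with the number tested in brackets, ordered by median log2 fold change. Dashed lines mark all genes, 10.1% above and 32.2% below; the Sm proteins, male germline and DNA replication lists reach 66.7%, 52.9% and 46.2% below with 0 above.

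Position, level and length were described for all genes. On the fourth chromosome 42.1% of 76 genes lay below *WT* and 3.95% above, and after local centring 21.1% lay below and 11.8% above there. On the larger arms the share below ranged between 26.7% on 3L and 37.5% on 2R, and the share above between 8.23% on 2R and 12.5% on 2L. By mean TPM, 40.1% of the lowest of 3 equal classes lay below and 8.04% above, and 24.9% of the highest class lay below and 11.1% above. Genes above *WT* had a median length of 2040 nt, genes below 1830 nt and overlapping genes 1977 nt. The shares varied most with position in the tables: 36.0% and 37.4% of the first pair of blocks of 500 tested genes lay above *WT* and 6.60% and 6.40% below, while in the other blocks 2.60% to 12.6% lay above and 19.4% to 50.2% below. After local centring the blocks held 12.6% to 21.4% above and 17.0% to 25.2% below.

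The second strain without a minor spliceosomal snRNA, *U6atac*Δ/Δ, was set beside *U12*Δ/Δ for some of the genes with the largest gaps. Both strains share the 2 *WT* libraries, so they are not independent in their difference from *WT*, and the values of *U6atac*Δ/Δ are given alone. *TotC* had 283 and 83.5 TPM in *U6atac*Δ/Δ and *TotB* had 3.50 and 8.73 TPM. *Rtf1* had 8.10 and 9.39 TPM and *Pof* 10.2 and 13.3 TPM. *CG13461*, with a log2 fold change of 5.99 between *U12*Δ/Δ and *WT* (in a stretch), had 12.3 and 29.2 TPM in *U6atac*Δ/Δ. *Syx8* had 46.0 and 77.1 TPM in *U6atac*Δ/Δ. These genes are only a part of those with the largest gaps, and how far the strains agree was not tested.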

How the data were processed

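Total RNA of whole L3 wandering larvae was sequenced as paired-end mRNA libraries. According to the paper's methods and the submitters' processing notes, the authors mapped trimmed reads to dm6 with TopHat2 and used featureCounts, and they deposited TPM values per gene and library. The program that made the TPM, the read counts per gene and the strand used in counting are not given in the sources used here. The counting error of a gene is thus unknown, and no interval was computed.

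Libraries were grouped by their titles, and all columns were mapped. The values were analysed as log2(TPM + 1) for genes averaging 1 TPM or more across the *U12*Δ/Δ and *WT* libraries. A gene was beyond *WT* when both *U12*Δ/Δ libraries lay above, or both below, both *WT* libraries. limma 3.58.1 in R 4.3.3 (lmFit, contrasts, eBayes with a trend) was fitted to all 8 libraries in 4 groups, with 4 residual degrees of freedom, and p was adjusted over all genes tested (Benjamini-Hochberg, threshold 0.05). On data simulated at the spread of these libraries, limma called 0, 2, 14 and 27 of 50 genes with rises of 2, 4, 6 and 8 on the log2 scale, and 1 of 10655 unchanged genes. The rises were given only to genes with a mean log2(TPM + 1) of at least 4. The simulated noise was independent between genes, so the stretches were not reproduced. Replicates are separate pools of larvae. The labels number replicates 1 and 2 in each group, and nothing states a pairing. The correlation of the deviations of same-numbered *U12*Δ/Δ and *WT* libraries was 0.108, and −0.0201 to 0.108 over all pairs of groups. These deviations also hold the stretches and cannot decide whether libraries were paired. A block for the replicate number is therefore only an alternative.

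Named genes were the 15 above and 15 below with the largest gap, the deleted gene and 5 neighbours on each side, the U12-type hosts and candidate neural genes, and up to 4 members of other lists; further members were added after their values were seen, among them *Ldh*, *Mhc*, *Hsp27*, *Hsp83*, *Snap25*, *Sgs4*, *betaTub85D* and the Turandot, Bomanin, Daisho and mucin families. Members and lists were chosen with earlier results of these data known. Symbols, introns and sequences come from the BDGP6 (dm6) genome and annotation, in which 17217 of 17473 genes have the position given in the tables. Alternatives are a pseudocount of 0.1, no filter, a minimum mean of 5 TPM, scaling by median ratio or by quantiles, the 4 libraries alone, no trend, the replicate block, a gap of at least 1, each library left out, and, chosen after seeing the data, local centring and leaving out the stretches. Python 3.11.15 (numpy 2.4.6, pandas 2.3.3, scipy 1.17.1, matplotlib 3.10.9) was used for all remaining steps.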

Additional observations from a re-analysis of the deposited data

How the results depend on the processing

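With all libraries kept, limma called 0 genes under every alternative run, with 698 to 1688 genes at an unadjusted p under 0.05. Leaving out each replicate in turn gave 0 to 269 calls, the 67 and 269 coming without *WT* replicates 1 and 2, and 2073 to 2793 genes above and 4894 to 5791 below *WT*, since a lone library is more easily passed; its spread is then assumed to be that of the other groups. With the replicate number as a block, limma also called 0 genes. Genes above *WT* numbered 2177 with median-ratio scaling, 1988 with quantile scaling, 1792 with local centring and 343 with a gap of at least 1. Genes below numbered 2089, 2184, 2250 and 1160 under the same settings and 2266 with a minimum mean of 5 TPM. The median log2 fold change of all genes, −0.60, became −0.27 with no filter, −0.0035 with median-ratio scaling, −0.081 with quantile scaling and −0.097 with local centring, and lay between −0.76 and −0.36 with a library left out. Of 48 named genes examined, 3 changed sign, *Plc21C* to −0.34 and *rut* to 0.30 with local centring and *Pka-R2* to 0.11 with median-ratio scaling. The cause of these changes was not tested. The paper lists total and mapped reads of its sequenced samples, while the reads counted per gene are not given. With 2 libraries per group the spread between libraries limits every comparison.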
